A study of Rattus norvegicus with 6 samples.

Results

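The fibroblasts of the rat pancreas described here were chosen by their transcript counts, as those in which Pi16 and Clec3b outweighed 2 other gene trios. A cell was taken as a fibroblast when it held at least 3 of Col1a1, Col1a2, Col3a1, Dcn, Lum and Pdgfra and no Ptprc, the pan-leukocyte gene. A fibroblast was a member when its unique transcripts (unique molecular identifiers, UMIs) of Pi16 plus Clec3b numbered at least 2 and exceeded both the sum of Gfpt2, Tnfrsf11b and Sema3c and the sum of C7, Spon1 and Inmt. This rule gave 2911 members among 12077 fibroblasts (24.1%) and among 75981 cells kept in all (3.83%). The remaining fibroblasts with a leading trio are called the Gfpt2 class and the C7 class below.

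Pi16 encodes a peptidase inhibitor and Clec3b encodes tetranectin, a plasminogen-binding protein, and both mark fibroblasts that lie in the adventitia around vessels and ducts and in fascia of many organs. Such cells are known for elastic fibre and microfibril genes, for Dpp4 and Cd55 at their surface, and as a reserve of other fibroblast types. Of the competing genes, Gfpt2 feeds the hexosamine pathway, Tnfrsf11b encodes the decoy receptor osteoprotegerin, Sema3c encodes a secreted semaphorin, C7 encodes a complement component, Spon1 encodes a matrix protein and Inmt encodes a methyltransferase. Ebf2, a transcription factor also used as a marker of these cells, took no part in the rule.

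The cells came from male Wistar rats, 2 per group and 1 library per rat, so that n = 2 for each group. Young rats were taken at 2 months on a normal diet, old rats at 20 months after 18 months on a normal diet, and HFHF-old rats at 20 months after 18 months on a high-fat, high-fructose (HFHF) diet. The tissue had been enriched for islets by collagenase digestion and a density gradient, so stroma was present as far as it travelled with the islets. The young rats gave 1193 and 687 members, the old rats 273 and 509 and the HFHF-old rats 116 and 133, and their summed UMIs ranged from 1232162 to 7943764 per rat. Levels below are UMIs of a gene per 1000000 UMIs (CPM) of all members of a rat, and tests were made on these sums, with the rat as the unit.

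The members were not equally pure in the 6 libraries. In young replicate 2 the median member held 2 UMIs of Pi16, against medians of 16 to 53 in the other rats, and 512 of its 687 members had only 2 to 9 UMIs of Pi16 plus Clec3b. The UMIs of those 512 cells were 29.6% islet marker transcripts and 8.12% acinar marker transcripts. In HFHF-old replicate 1, 44 of 116 members had 2 to 9 UMIs, and 48.7% of the UMIs of these cells came from acinar markers. HFHF-old replicate 2 had 6 such members of 133. UMIs of the pair were also found in cells that should lack them, namely cells with at least 2 UMIs of Ptprc and no fibroblast gene. Of these leukocytes 6.67% to 43.1% per library held a Pi16 UMI (median depth 3745 to 8558 UMIs). Among members, which the rule chose by the pair, 94.0% to 100% did (median depth 3601 to 9898 UMIs). Leaving out leukocytes with a fibroblast gene can make their shares too low, and free RNA and doublets were not told apart. At least 2 UMIs of Pi16 plus Clec3b were held by 1.27% to 22.1% of those leukocytes, whereas at least 10 were held by 0.0105% to 0.488%. The comparisons were therefore repeated with each of the 3 classes required to hold at least 10 UMIs of its own genes. Some genes were too low to test there, and no rat was left out in turn. The limit of 10 UMIs left 970 and 175 young, 241 and 436 old, and 72 and 127 HFHF-old members. Of all members, 1087 held at least 2 UMIs of marker genes of endothelial, mural, mesothelial, epithelial, Schwann or immune cells and were doublet-like, 552 of them in young replicate 2.

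**Figure D1:**
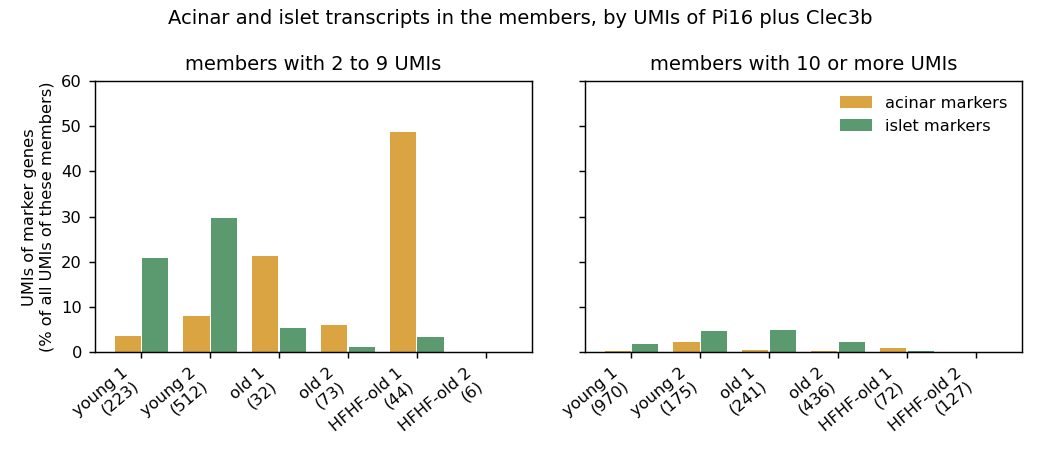
Acinar and islet marker transcripts as a percentage of all UMIs (vertical axis) of the members in each rat (horizontal axis, number of members in parentheses), for members with 2 to 9 UMIs (left) and with 10 or more UMIs (right) of Pi16 plus Clec3b. Among members with few UMIs the islet markers reached 29.6% in young replicate 2 and the acinar markers 48.7% in HFHF-old replicate 1, whereas among members with 10 or more UMIs the highest bar was 4.88%.

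Pi16 and Clec3b were both found in 2369 members (81.4%), Pi16 alone in 486 and Clec3b alone in 56. A UMI of the competing trios was present in 2590 members (89.0%). At the edges, 241 members had exactly 2 UMIs of the pair, 249 fibroblasts led by the pair had only 1 and stayed outside, and 227 fibroblasts were tied with a competing trio. A further 5877 fibroblasts held at least 2 UMIs of the pair but more of a competing trio. Within 2 UMIs of the competing trio lay 663 members on the inner side and 579 fibroblasts on the outer side.

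The genes used by the rule are given as a description only. Pi16 stood at 4668 and 1347 CPM in young, 4379 and 5203 CPM in old and 3074 and 6623 CPM in HFHF-old rats, and among members with at least 10 UMIs at 5015 and 3397 CPM in young, 4539 and 5577 CPM in old and 5477 and 6724 CPM in HFHF-old rats. The lowest of the 6 values was that of young replicate 2 in both. Clec3b stood at 425 and 977 CPM in young, 1519 and 1519 CPM in old and 291 and 925 CPM in HFHF-old rats. Its highest values were those of the old rats. With at least 10 UMIs it stood at 454 and 2509.6 CPM in young, 1568 and 1578 CPM in old and 531 and 938 CPM in HFHF-old rats, highest in young replicate 2. Pi16 averaged 4216 ± 1819 CPM in members (SD, n = 6 rats here and for the class averages below), 1982 ± 1023 CPM in the Gfpt2 class and 361 ± 172 CPM in the C7 class, and Clec3b averaged 943 ± 521 CPM, 613 ± 291 CPM and 446 ± 312 CPM.

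The matrix genes of the fibroblast gate varied among rats. Col3a1, a fibril collagen, stood at 12141 and 14391 CPM in young, 3193 and 2048 CPM in old and 6118 and 946 CPM in HFHF-old rats among members with at least 10 UMIs, and both young rats were above all 4 aged rats. Col1a1 stood at 5018 and 7463 CPM in young, 1499 and 632 CPM in old and 3026 and 361 CPM in HFHF-old rats and the small proteoglycan gene Lum at 937 and 1089 CPM in young, 464 and 287 CPM in old and 515 and 86.0 CPM in HFHF-old rats in the same cells, with both young rats on top in each. HFHF-old replicate 2 was lowest in all 3. Decorin (Dcn), a proteoglycan that binds collagen fibrils, stood at 12151 and 10848 CPM in young, 14342 and 15318 CPM in old and 12392 and 14226 CPM in HFHF-old rats, with both young rats lowest. Over all members Dcn ranged more widely, at 11394 and 4041 CPM in young, 13961 and 14860.1 CPM in old and 6839 and 14083 CPM in HFHF-old rats, where young replicate 2 was lowest and HFHF-old replicate 1 was next. Over all members Lum stood at 889 and 428 CPM in young, 465 and 289 CPM in old and 292 and 86.0 CPM in HFHF-old rats, where young replicate 2 lay below old replicate 1. Over all members Col3a1 stood at 11396 and 5356 CPM in young, 3097 and 2024 CPM in old and 3441 and 941 CPM in HFHF-old rats, where young replicate 2 also remained above the 4 aged rats.

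Adventitial markers that the rule did not use were mostly higher than in the C7 class but did not set these cells apart from the Gfpt2 class. A list of 30 adventitial genes was compared between classes within each rat. The list was chosen with earlier results of these data known, so it is not an independent check of the label. Against the C7 class 27 of them could be tested, of which 19 were higher in members and 1, Col15a1, was lower, where over all genes 7.05% were called higher and 7.93% lower (edgeR quasi-likelihood test, adjusted p below 0.05 and a change over 1.5-fold). The list's median log2 fold change was 1.37, against 0.02 for all genes tested. Against the Gfpt2 class 28 could be tested, none was called higher and 3 were lower, where 1.29% of all genes were called higher and 2.08% lower, and the list's median was -0.08 against 0.02. At the stricter limit of 10 UMIs per class the counts were 21 higher and 1 lower of 27 against the C7 class, and 0 higher and 3 lower of 27 against the Gfpt2 class. The classes were cut from the same cells' UMIs, so these comparisons describe what goes with the rule, and their p-values measure how evenly the 6 rats show it.

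Ebf2 itself did not separate the class. It averaged 563 ± 281 CPM in members, 675 ± 311 CPM in the Gfpt2 class and 612 ± 189.9 CPM in the C7 class. The log2 fold change was -0.00 ± 0.15 (SE) against the C7 class (edgeR adjusted p = 0.996) and -0.31 ± 0.09 against the Gfpt2 class (edgeR adjusted p = 0.0680). In members it stood at 878 and 157 CPM in young, 579 and 607 CPM in old and 325 and 833 CPM in HFHF-old rats, lowest in young replicate 2. Its relatives Ebf1 and Ebf3 were not called in either comparison, but with at least 10 UMIs per class Ebf1 was higher than in the C7 class (log2 fold change 0.70, edgeR adjusted p = 6.55e-04). The class is therefore called by its leading genes, Pi16 Clec3b fibroblasts, in what follows.

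**Figure D2:**
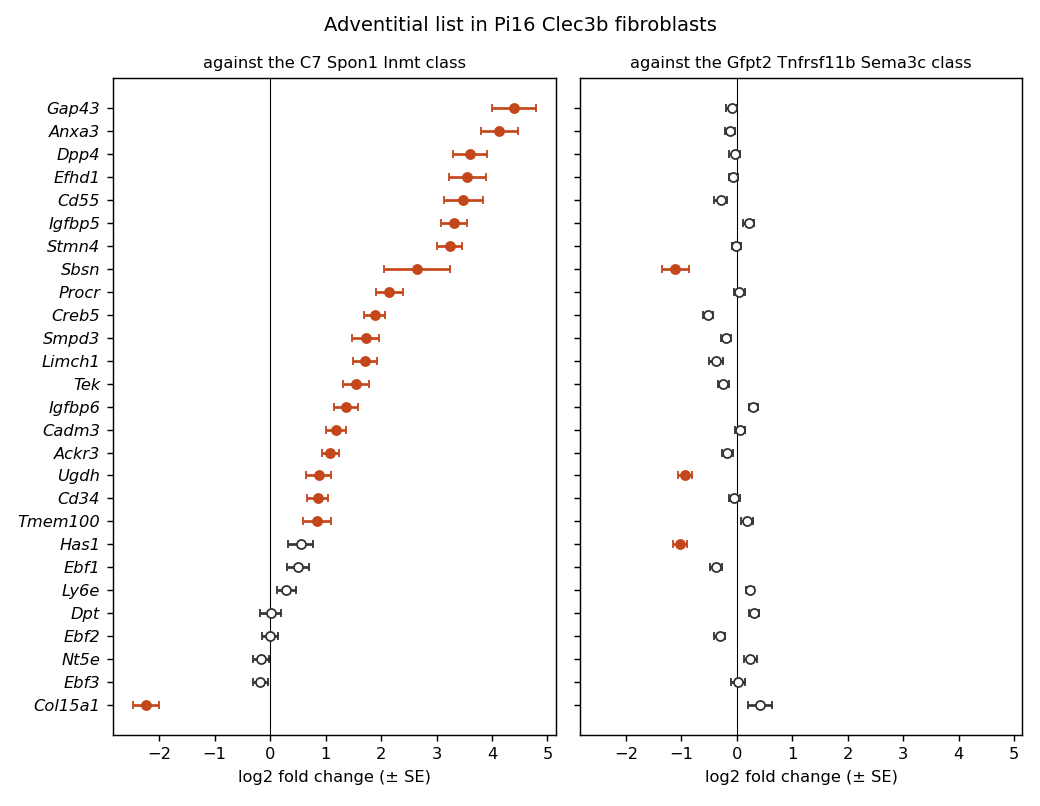
Log2 fold change with its standard error (horizontal axis) of the adventitial genes tested in both comparisons (vertical axis), for Pi16 Clec3b fibroblasts against the C7 class (left) and against the Gfpt2 class (right). Filled red points passed the test: 19 genes to the right and Col15a1 to the left of 0 on the left panel, and Sbsn, Has1 and Ugdh to the left of 0 on the right panel, with Ebf2 close to 0 on the left.

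Against the C7 class, Dpp4, Cd55, Anxa3 and Gap43 were among the 19 markers that were higher. Dpp4, a membrane peptidase, stood at 280.2 and 152 CPM in young, 284 and 287 CPM in old and 251 and 284 CPM in HFHF-old rats in members, against 5.65 to 60.5 CPM in the C7 class, so that the classes did not overlap. Its log2 fold change was 3.61 ± 0.31 (edgeR adjusted p = 4.83e-05), and against the Gfpt2 class it was -0.04 ± 0.10 (edgeR adjusted p = 0.859). Cd55, which encodes an inhibitor of complement at the cell surface, averaged 579.5 ± 229 CPM in members and 68.1 ± 48.8 CPM in the C7 class, a log2 fold change of 3.49. Anxa3, a calcium-dependent membrane-binding protein, averaged 312 ± 127 CPM against 24.5 ± 21.7 CPM (log2 fold change 4.13), and Gap43, known from growing axons, averaged 106 ± 58.4 CPM against 7.60 ± 5.51 CPM (log2 fold change 4.39). Neither Cd55, Anxa3 nor Gap43 passed the test against the Gfpt2 class, with log2 fold changes of -0.29, -0.13 and -0.09. After thinning each cell to 2000 UMIs, Dpp4 was found in 15.7% to 42.6% of members, 34.7% to 41.0% of Gfpt2 class cells and 0% to 9.13% of C7 class cells per rat (unthinned 27.2% to 73.7%, 48.1% to 81.9% and 2.39% to 19.0%).

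Over all genes, 1570 of 10476 passed the test against the C7 class, 739 higher and 831 lower (15%). At the stricter limit of 10 UMIs per class 1522 of 9932 passed (15.3%, with 6.97% higher and 8.36% lower), and 1301 genes passed in both. Among the higher genes with the smallest p were Igfbp5, a binding protein of insulin-like growth factors (3745 and 1588 CPM in young, 3656 and 4610.1 CPM in old and 2528 and 5026 CPM in HFHF-old rats in members, 254 to 826 CPM in the C7 class, log2 fold change 3.31), and Il34, a ligand of the colony-stimulating factor 1 receptor (log2 fold change 2.65). The transcription factor Osr2 (1.62), the microtubule regulator Stmn4 (3.23), the hydrogen peroxide-producing oxidase Duox1 (2.47), the heparan sulfate sulfotransferase Hs3st5 (4.42), Olfml2a (3.00), Zfp385a (1.62), the small GTPase Rras2 (1.35) and the exchange factor Mcf2l (2.27) completed the 10, all higher in 6 of 6 rats, as were 4.45% of all genes tested. Among the lower genes, the Notch target Heyl averaged 4.85 ± 3.52 CPM in members and 108 ± 63.0 CPM in the C7 class (log2 fold change -4.17), and the receptor gene Pdgfrb averaged 12.5 ± 6.08 CPM against 101 ± 32.2 CPM (-2.80). The acid-sensing channel Asic2 (-5.64), the matricellular gene Smoc2 (-3.10), the collagens Col6a6 (-3.72) and Col6a1 (-1.97), the ceramidase Acer2 (-2.73), the guanylate cyclase subunit Gucy1a3 (-3.83), the matrix gene Frem1 (-2.99) and the oxysterol hydroxylase Cyp7b1 (-3.22) were lower in 6 of 6 rats, as were 25% of all genes tested. Every one of these 20 genes kept an edgeR adjusted p below 0.05 and its direction with at least 10 UMIs per class and without young replicate 2.

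The counts of the extracellular matrix lists stand against 7.05% of all genes called higher and 7.93% lower than in the C7 class. Of 18 elastic fibre and microfibril genes tested, 7 were higher and 3 lower in members than in the C7 class. Fibrillin 1 (Fbn1), the main microfibril protein, averaged 4183 ± 1592 CPM in members against 2092 ± 1196 CPM in the C7 class (log2 fold change 1.37). The microfibril-associated gene Mfap5 (1.91), Emilin2 (1.45) and the elastin cross-linking enzyme Loxl1 (1.32) rose with it, while Fbln1 (-1.82), Emilin1 (-2.40) and Fbn2 (-3.11) were lower. Of 21 collagen genes and their enzymes, 2 were higher, Col12a1 (1.70) and Col8a1 (1.74), and 9 were lower, among them the basement membrane gene Col4a1 (-2.01) and Col15a1 (-2.24), a collagen of the zone next to basement membranes. Of 21 proteoglycan and glycoprotein genes, 5 were higher and 7 lower. Fibronectin (Fn1) averaged 2018 ± 935 CPM against 546 ± 517 CPM (log2 fold change 2.47), and Thbs2 (1.93), Vcan (1.37) and Aspn (1.52) rose as well. The inhibitor of calcification Mgp fell from 3152 ± 1468 CPM in the C7 class to 267 ± 147 CPM in members (log2 fold change -3.37), and Bgn (-1.87) and Nid2 (-2.38) were lower too. Col1a1, Col3a1, Dcn and Lum belonged to the rule and were not tested.

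Of 31 cytokine, chemokine and prostanoid genes tested against the C7 class, 4 were higher and 13 lower, where 7.05% of all genes were called higher and 7.93% lower, as for the other lists here. The alarmin Il33 averaged 769 ± 360.2 CPM in members and 201 ± 64.1 CPM in the C7 class (log2 fold change 2.09). Ptgs1 (2.97) and Ptges (2.47), which act in sequence toward prostaglandin E, and Tnfaip2 (0.83) were higher too. The chemokine Cxcl14 averaged 8.19 ± 9.77 CPM against 266 ± 158 CPM (log2 fold change -4.84), and the phospholipase Pla2g2a (-2.69) and the receptor genes Il1r1 (-2.04) and Il6st (-1.26) were lower. Of 19 complement genes, Cd55 was higher and C6 (-3.06) and C3 (-2.55) were lower. Of 31 genes of growth factor axes 6 were higher and 15 lower, of 30 genes of Wnt, BMP and TGF-beta signalling 6 were higher and 6 lower, of 23 proteases and inhibitors 4 were higher and 4 lower, and of 28 lipid and adipogenic genes 2 were higher and 6 lower. Of 26 subunits of oxidative phosphorylation 10 were higher and 0 lower (4 higher with at least 10 UMIs per class), and the list's median log2 fold change was 0.54.

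Markers of other cells moved with this comparison. Of 15 acinar enzyme genes tested, 14 were called higher in members than in the C7 class and 0 were lower, with a median log2 fold change of 2.02, and 0 of 15 were called with at least 10 UMIs per class (median 0.39). The summed acinar marker level of members was 207 to 227081 CPM per rat over all members and 205 to 22324 CPM with at least 10 UMIs. Of 4 class II genes of the major histocompatibility complex, which antigen-presenting cells express, 3 were called higher and none with at least 10 UMIs per class. Of 10 macrophage markers 0 were called. Removing the acinar, islet and erythroid marker genes from the sums left 1569 genes called, and removing doublet-like cells left 1531.

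Against the Gfpt2 class the members differed in 371 of 11004 genes (3.37%), of which 142 were higher and 229 lower. Without doublet-like cells 155 genes were called, and 220, 210 and 230 were called without young replicate 1, old replicate 2 and HFHF-old replicate 1 in turn. At the stricter limit of 10 UMIs per class 194 of 10104 passed (1.92%), 30 higher (0.297%) and 164 lower (1.62%), and 131 genes passed in both. The higher side was led by leukocyte genes. Of 10 macrophage markers 9 were called higher with a median log2 fold change of 1.31, all 5 class II genes were called higher, and none of either list was called with at least 10 UMIs per class, where the macrophage median was 0.45. The summed macrophage marker level in members was 35.7 to 4231 CPM per rat over all members and 36.4 to 823 CPM with at least 10 UMIs. Their part in the higher side was not tested. Of the 10 higher genes with the smallest p, Apobec1 (1.89), Alox5ap (1.83), Csf1r (1.41), Nkg7 (1.15), C1qc (1.30), Cd53 (1.15) and Ifi30 (0.86) are known from leukocytes, and C1qa (1.40), C1qb (1.41), C5ar1 (1.69) and Cxcl2 (1.39) were the called members of the complement and cytokine lists on that side. With at least 10 UMIs per class Apobec1, Nkg7 and C5ar1 were too low to test and the other 8 of these 11 were not called. C1qa, C1qb, C1qc, Csf1r, Cxcl2 and Ifi30 also lost their call without doublet-like cells, with log2 fold changes of 0.21 to 0.66. Csf1r and other leukocyte genes define those cells, so these losses are no independent check. The remaining 3 of the 10 were called in both: Wfdc1, a secreted protein with a protease inhibitor domain (107 ± 43.3 CPM in members and 51.0 ± 34.3 CPM in the Gfpt2 class, log2 fold change 1.16 ± 0.18, edgeR adjusted p = 0.00832), the heat shock gene Hsph1 (log2 fold change 0.71) and Gdf10, a member of the BMP family (log2 fold change 1.46), all higher in 6 of 6 rats, as were 5.03% of all genes tested (7.56% were lower in 6 of 6). Hsph1 fell just short of the 1.5-fold limit without HFHF-old replicate 2 (log2 fold change 0.58), and it was at 0.44 with cells thinned to 2000 UMIs.

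On the lower side, the secreted-protein gene Wfdc21 averaged 0.978 ± 0.918 CPM in members and 161 ± 82.8 CPM in the Gfpt2 class, a log2 fold change of -6.96 ± 0.25 (edgeR adjusted p = 2.03e-07). Has1, a hyaluronan synthase, averaged 309 ± 166 CPM against 625 ± 355 CPM (-1.03), and Ugdh, which makes the sugar nucleotide that hyaluronan synthases use, averaged 519 ± 379.8 CPM against 957 ± 578 CPM (-0.94). Both are on the adventitial list, as is Sbsn (-1.11). The call of Sbsn was lost without old replicate 1 (-1.16, edgeR adjusted p = 0.0584), without old replicate 2 (-0.98, edgeR adjusted p = 0.0870), without the top 1% of cells by gene number, with cells thinned to 2000 UMIs (-0.29) and without doublet-like cells (-0.14). Of 28 cytokine, chemokine and prostanoid genes tested 7 were lower, where 2.08% of all genes were, including Ptgs2, the inducible cyclooxygenase (-1.11), Ptx3 (-1.47), Osmr (-0.79) and Icam1 (-0.68), and with at least 10 UMIs per class 10 of 28 were lower, where 1.62% of all genes were. The matrix genes Fmod (-2.78) and Thbs1 (-0.99), the focal adhesion gene Vcl (-0.90), Filip1 (-0.94), the receptor Ephb1 (-4.45), the glycosyltransferase Gcnt2 (-2.94), Clic3 (-5.19), Fras1 (-3.41) and Coq10b (-0.64) were lower as well, of which Fmod, Ephb1 and Clic3 were too low to test with at least 10 UMIs. Thbs1 lost its call without young replicate 1, old replicate 2 or HFHF-old replicate 2 in turn (edgeR adjusted p = 0.0866, 0.0537 and 0.0801). With cells thinned to 2000 UMIs Icam1 (-0.47) and Coq10b (-0.54) fell short of the 1.5-fold limit. Upk1b, a uroplakin (-5.91), belongs to a list of mesothelial markers, of which all 4 tested were lower in members, also with at least 10 UMIs per class. No gene of 17 elastic fibre and microfibril genes and none of 21 collagen genes was called against the Gfpt2 class. The rat was kept as a block in both comparisons of classes. Without it 5 genes instead of 371 were called against the Gfpt2 class and 833 instead of 1570 against the C7 class. Of the 51 genes named and called against the C7 class, Fbn1, Fbn2, Col8a1, Vcan, Tnfaip2 and Pla2g2a lost their call in that fit (edgeR adjusted p = 0.0546 to 0.139), and none lost it under another alternative in which it was tested.

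**Figure D3:**
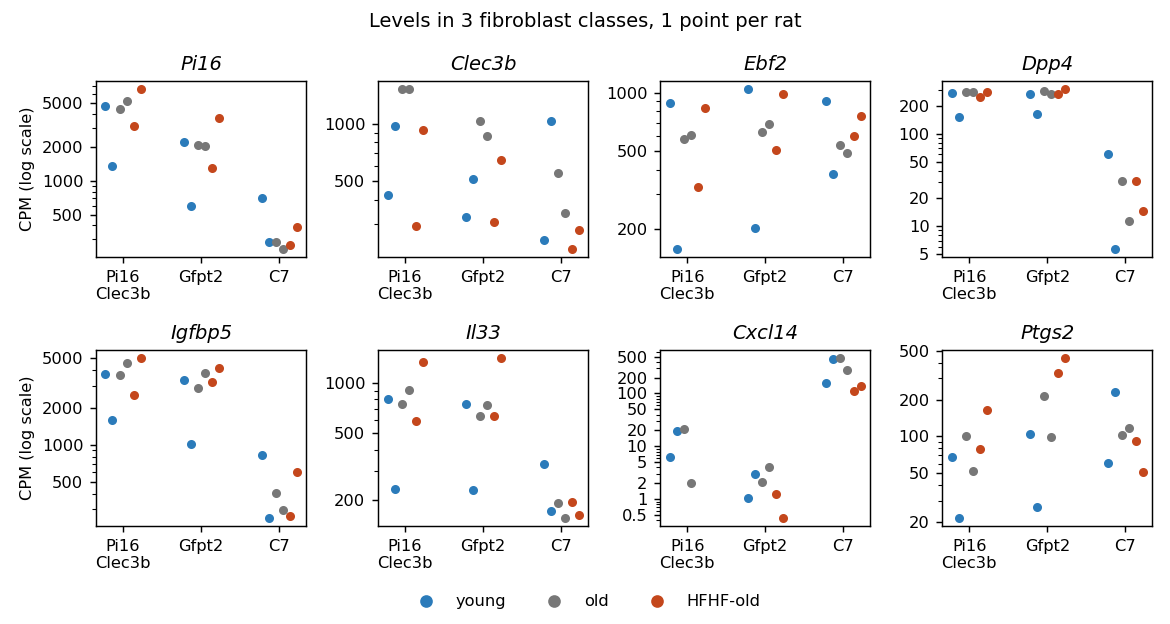
Level of 8 genes (vertical axes, CPM on a log scale) in Pi16 Clec3b fibroblasts, the Gfpt2 class and the C7 class (horizontal axes), with 1 point per rat coloured by group and points at 0 CPM left out (Cxcl14 in both HFHF-old rats of the Pi16 Clec3b class). Dpp4 and Igfbp5 lie close together in the first 2 classes and lower in the C7 class, Ebf2 overlaps in all 3, and Cxcl14 is highest in the C7 class.

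The class made up 27.9% and 58.5% of fibroblasts in the young rats, 24.2% and 23.4% in the old rats and 4.52% and 17.5% in those fed HFHF, with exact 95% binomial intervals for counting error of 26.5% to 29.3%, 55.6% to 61.4%, 21.8% to 26.9%, 21.6% to 25.3%, 3.75% to 5.40% and 14.8% to 20.4%. Both HFHF-old rats were below both old rats. The old rats averaged 23.8% ± 0.588 (SD, n = 2), the SD of the HFHF-old rats was 9.16, and the difference of the means was -12.8 percentage points. Under the exact two-sided permutation test the p was 0.333, the smallest that 2 rats against 2 can give. Counted at 10 or more UMIs per class, the shares were 22.7% and 14.9%, 21.4% and 20.1%, and 2.81% and 16.7%, and both HFHF-old rats again were below both old rats (exact permutation p = 0.333). The HFHF-old rats differed from each other by more than HFHF-old replicate 2 differed from the old rats. In HFHF-old replicate 1 the Gfpt2 class made up 1957 of 2564 fibroblasts, and in young replicate 2 the Gfpt2 and C7 classes held 69 and 45 of 1174. The young shares did not settle the comparison of old and young: both young rats were above both old rats over all members (exact permutation p = 0.333), but with at least 10 UMIs the old rats lay between the young ones (difference 1.94 percentage points, exact permutation p = 1), since young replicate 2 went from 58.5% to 14.9%. Shares depend on what the dissociation and gradient let through, which cannot be told apart from the number of cells in the tissue. They also depend on the competing genes, since a fibroblast with more of a competing trio was not a member. Fibroblasts with at least 2 UMIs of the pair but more of a trio numbered 2111 of 4278 and 72 of 1174 in young rats. They numbered 654 of 1126 and 460 of 2174 in old and 2058 of 2564 and 522 of 761 in HFHF-old rats. Their part in the share differences was not tested.

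**Figure D4:**
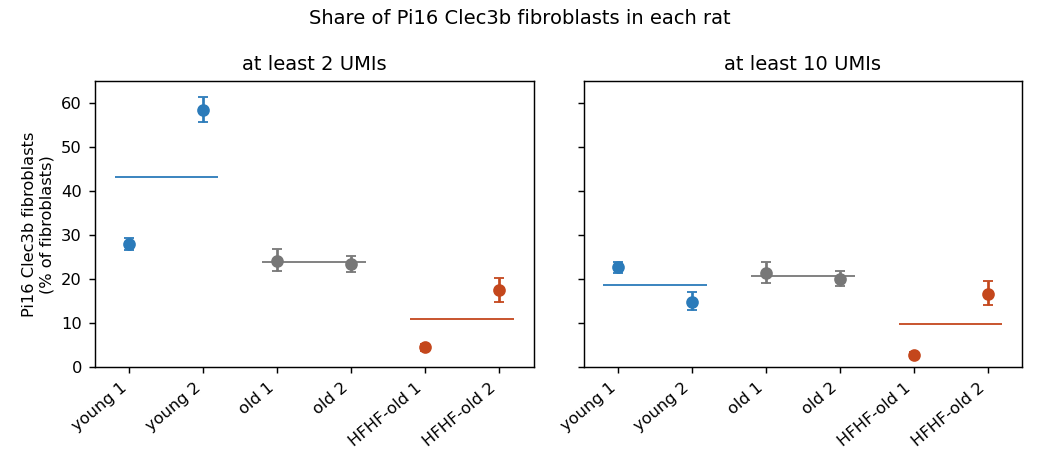
Pi16 Clec3b fibroblasts as a percentage of all fibroblasts (vertical axis) in each rat (horizontal axis) with at least 2 UMIs (left) or at least 10 UMIs (right) of the class genes, with exact 95% binomial intervals of the count as bars and group means as lines. Both HFHF-old rats lie below both old rats in each panel, and young replicate 2 moves from 58.5% to 14.9%.

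Within the class, long-term HFHF feeding was compared with the normal diet at the same age. No gene of 10895 passed the test between HFHF-old and old rats (0%, edgeR quasi-likelihood test). An unadjusted p below 0.05 was reached by 226 genes, and DESeq2 called 5. Of 10249 genes tested with at least 10 UMIs per class 0 passed and 565 had an unadjusted p below 0.05. Both HFHF-old rats lay above both old rats for 7.4% of the genes tested and below them for 22.1%. The values of the genes with the smallest p are therefore given as a description of 2 rats against 2, and the smallest adjusted p over all members was 0.999.

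On the higher side, Plxna4, a receptor component for semaphorins, stood at 52.5 and 19.0 CPM in young, 18.1 and 7.47 CPM in old and 73.6 and 110.4 CPM in HFHF-old rats (log2 fold change 2.90 ± 0.48). The old rats were lowest, and with at least 10 UMIs the log2 fold change was 3.07 with an edgeR adjusted p of 0.156. The adhesion molecule gene Icam1 stood at 32.0 and 13.7 CPM in young, 34.8 and 32.4 CPM in old and 79.4 and 109.6 CPM in HFHF-old rats (1.57 ± 0.31), with both HFHF-old rats above the other 4. Skil, which encodes a repressor of SMAD signalling, stood at 18.0 and 10.8 CPM in young, 20.6 and 16.9 CPM in old and 36.5 and 62.5 CPM in HFHF-old rats (1.45 ± 0.29), again with the HFHF-old rats on top. The others of this kind were Gch1, the entry enzyme of tetrahydrobiopterin synthesis (2.64), the actin regulator Baiap2 (1.75), the cationic amino acid transporter Slc7a1 (1.76), the antiviral gene Oasl (1.84), Prg4, which encodes lubricin (1.99), Exoc6 (1.37) and the activin subunit Inhbb (2.01).

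On the lower side, the class I gene RT1-A1 stood at 103 and 144 CPM in young, 609 and 525 CPM in old and 79.4 and 145 CPM in HFHF-old rats (-2.29 ± 0.50), and the old rats were above the other 4. RT1 genes form a family of near-identical copies whose reads can be shared, so this value is uncertain. The interferon regulator Irf7 stood at 108 and 80.3 CPM in young, 192 and 216 CPM in old and 68.5 and 61.7 CPM in HFHF-old rats (-1.53 ± 0.38), highest in the old rats. The orphan nuclear receptor Nr4a2 (-1.34), the interferon-induced Mx2 (-1.41), the neurotrophin receptor Ntrk3 (-1.43) and the class II gene RT1-Bb (-5.17) followed. RT1-Bb lay between -10.7 and -4.13 across the alternatives. Among members with at least 10 UMIs its level was 0 to 46.4 CPM over the 6 rats, with a median of 1.65 CPM. Antigen-presenting cells express class II genes, and their part in this value was not tested. S100b (-2.51) is also on the list of Schwann cell markers. Sox9, on the list of duct cell markers, rested on few UMIs and stood at 6.04 and 2.92 CPM in young, 5.33 and 7.97 CPM in old and 0.640 and 0.812 CPM in HFHF-old rats. The sulfotransferase Ndst4 had 33 UMIs in old and 0 in HFHF-old rats, which makes it at least 6.37-fold lower when 3 UMIs over the group are taken as the floor.

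None of the gene lists had a called member between HFHF-old and old rats. Of 24 interferon genes 6 had positive and 18 negative log2 fold changes (median -0.44, against 0.00 for all genes tested), and of 30 cytokine, chemokine and prostanoid genes 22 had positive ones (median 0.38), with Tnfaip3 next to Icam1 in p (2.13). Of 26 genes of endoplasmic reticulum stress 20 had positive values (median 0.24), led by Trib3 at 2.64 and 2.92 CPM in young, 2.13 and 3.99 CPM in old and 12.8 and 17.0 CPM in HFHF-old rats (2.37) and Xbp1 (1.41). Xbp1 stood at 44.8 CPM in HFHF-old replicate 1 and at 11.5 to 17.0 CPM in the other 5 rats, and its log2 fold change was 0.15 without that rat. That library also held the highest summed acinar marker level, 227081 CPM. Of 21 proteoglycan and glycoprotein genes 16 had negative values (median -0.21, but 0.01 with 12 of 21 positive with at least 10 UMIs), led by Smoc2 (-1.17) and Ogn (-0.93). Among 21 collagens, Col5a1 (0.79) and Col6a6 (-0.75) had the smallest p, and among 18 elastic fibre genes Lox (0.86) and Mfap2 (-0.67). In the Wnt, BMP and TGF-beta list these were Rspo3 (-1.58) and Ctgf (-1.35), in the protease list Mmp19 (-1.75) and Htra3 (0.89), in the lipid list Cebpd (-1.11), and in the growth factor list Ntf3 and Ptn (-2.56). Ntf3 stood at 5.92 and 4.02 CPM in young, 6.39 and 6.97 CPM in old and 0 and 1.62 CPM in HFHF-old rats. The antioxidant genes Gclc (1.02) and Sod2 (0.89) led a list of 32 with 14 positive and 18 negative values, and the early dissociation genes Hsph1 (1.25) and Gadd45b (0.81) a list of 33 with 25 positive values. Of the adventitial list 14 values were positive and 14 negative (median -0.02), with Ugdh at 1.22 and Thy1 at 8 UMIs in old and 0 in HFHF-old rats. Complement (C5ar1 2.05, Cfp 1.48), contractile (Acta2, Tpm2 -2.85) and growth arrest genes (Igfbp3 -1.47, Ccnd2 -1.63) did not pass either. Neither did proliferation (Top2a, Mki67 3.62), oxidative phosphorylation (Ndufa2 -0.58, Ndufa4 -0.66) and class II genes (RT1-Db1 -1.72). For Top2a, with few UMIs in the old rats, levels are given with those for age below. C5ar1 turned to -0.25 without HFHF-old replicate 1 and to -0.86 with cells thinned to 2000 UMIs, and Ccnd2 turned to 0.68 without old replicate 1 and to 0.33 without doublet-like cells. Across the alternatives Cfp lay between 0.054 and 2.12, Mki67 between 0.50 and 4.55, Top2a between 1.37 and 4.98 and Igfbp3 between -3.23 and -0.73. Ptn lay between -10.2 and -1.54 and RT1-Db1 between -5.21 and -0.78, each lowest without HFHF-old replicate 1 and highest without HFHF-old replicate 2. Of the 54 genes that the rule names for the diet, 26 moved by more than 1.5-fold when 1 rat was left out, and 35 did so under any alternative. Gadd45b turned to -0.039 without HFHF-old replicate 2 and Ctgf to 0.13 with thinned cells. Acta2, the smooth muscle actin, stood at 15.9 and 53.7 CPM in young, 1.07 and 33.4 CPM in old and 0.640 and 0 CPM in HFHF-old rats. The 8 markers of smooth muscle and pericytes, Acta2 among them, summed to 72.9 and 207.6 CPM in young, 29.1 and 119.6 CPM in old and 14.7 and 18.7 CPM in HFHF-old rats. All 4 of them that could be tested had negative values (median -2.25), and their part in the contractile values was not tested. All 16 acinar genes tested had positive values (median 3.58; 6 of 15 and -0.77 with at least 10 UMIs) and 11 of 12 islet genes negative ones (median -3.28; 12 of 12 and -5.85 with at least 10 UMIs), and their part in the smaller differences was not tested.

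**Figure D5:**
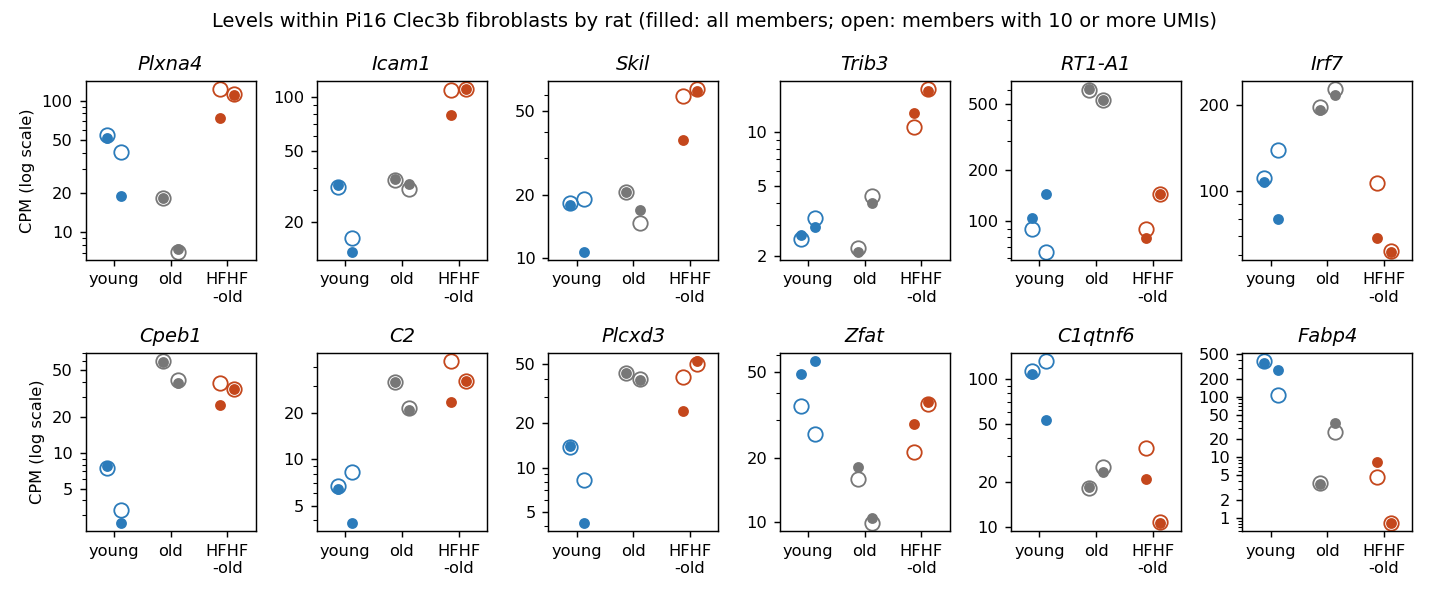
Level of 12 genes (vertical axes, CPM on a log scale) within Pi16 Clec3b fibroblasts in the young, old and HFHF-old rats (horizontal axes), with filled points for all members of a rat and open circles for its members with 10 or more UMIs of Pi16 plus Clec3b. The groups of Plxna4, Icam1, Trib3 and RT1-A1 do not overlap between old and HFHF-old rats, and those of Cpeb1, C2 and C1qtnf6 do not overlap between young and old rats. Except for Trib3, this was a condition for naming them. Of all genes tested, both HFHF-old rats lay above both old rats for 7.4% and below for 22.1%. Both old rats lay above both young rats for 18.9% and below for 7.31%. No gene passed the test over all members, and 1 gene, not shown, passed for age with at least 10 UMIs.

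Between old and young rats on the normal diet no gene of 10895 passed the test within the class either (0%, edgeR quasi-likelihood test). An unadjusted p below 0.05 was reached by 357 genes and DESeq2 called 12. Both old rats lay above both young rats for 18.9% of the genes tested and below them for 7.31%. Of the genes tested with at least 10 UMIs per class, 1 of 10249 passed (0.00976%), AC127784.2 (edgeR adjusted p = 0.00475), and over all members its edgeR adjusted p was 0.0518. It was singled out after its values were seen, and it stood at 0.126 and 0 CPM in young, 30.5 and 23.4 CPM in old and 16.0 and 21.1 CPM in HFHF-old rats, so that both young rats were at or near 0 and no fold is given. With at least 10 UMIs per class no fit left out a rat, so the call of AC127784.2 was not checked in that way. The edgeR adjusted p was 0.662 for Cpeb1 and 0.999 for the other genes named below.

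Cpeb1, a regulator of messenger RNA polyadenylation, stood at 7.80 and 2.56 CPM in young, 58.6 and 39.4 CPM in old and 25.6 and 34.9 CPM in HFHF-old rats (log2 fold change 3.09 ± 0.40). Both young rats were below the other 4, and with at least 10 UMIs the log2 fold change was 3.09 with an edgeR adjusted p of 0.0652. The complement component C2 stood at 6.42 and 3.83 CPM in young, 31.6 and 20.9 CPM in old and 23.7 and 32.5 CPM in HFHF-old rats (2.16 ± 0.33), again with both young rats below the other 4, and C4b, the next complement gene by p, at 45.3 and 17.0 CPM in young, 117 and 77.2 CPM in old and 60.2 and 123 CPM in HFHF-old rats (1.51 ± 0.39). Plcxd3 stood at 14.1 and 4.20 CPM in young, 43.7 and 39.4 CPM in old and 24.3 and 52.8 CPM in HFHF-old rats (2.07 ± 0.42). Dusp26 (2.44), Nr4a2 (1.79), Gpr176 (2.37), the fatty acid transporter Slc27a6 (1.62), the plakin Ppl (1.89) and the epithelial growth factor Fgf7 (2.59) were others on that side.

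On the other side, C1qtnf6 stood at 109 and 53.1 CPM in young, 18.5 and 23.4 CPM in old and 21.1 and 10.6 CPM in HFHF-old rats (-2.10 ± 0.48), with both young rats on top. Fibrillin 2 (Fbn2), which is most active in developing tissue, had 128 UMIs in the young and 0 in the old rats, at least 15.3-fold lower in the old with 3 UMIs over the group as the floor, and it had 0 UMIs in the HFHF-old rats as well. Zfat (-2.17), Fam43a (-2.20) and Gch1 (-2.63) were closer to 0 with at least 10 UMIs, at -1.21, -1.37 and -1.28. Cenpe, Aspm, Top2a and Pttg1 are genes of cell division. For these and Cenpf, with so few UMIs in the old rats, levels are given in place of folds. Cenpe stood at 5.92 and 13.5 CPM in young, 0.710 and 0.498 CPM in old and 6.40 and 4.87 CPM in HFHF-old rats, Aspm at 4.15 and 10.0 CPM in young, 0.355 and 0.498 CPM in old and 1.92 and 3.25 CPM in HFHF-old rats and Pttg1 at 6.55 and 15.3 CPM in young, 1.07 and 0 CPM in old and 2.56 and 2.43 CPM in HFHF-old rats. The young rats were above the old rats in each. Of 14 proliferation genes tested all had negative log2 fold changes (median -2.16, against -0.01 for all genes, and 9 of 11 with at least 10 UMIs), with Cenpf over all members at 13.2 and 25.7 CPM in young, 0 and 0.498 CPM in old and 7.68 and 0 CPM in HFHF-old rats and Top2a at 17.1 and 82.0 CPM in young, 0.742 and 0.548 CPM in old and 5.89 and 2.48 CPM in HFHF-old rats among members with at least 10 UMIs. Plvap (-5.48) is also an endothelial marker. All 4 endothelial, all 4 T and natural killer cell and all 10 macrophage markers tested had negative values too (medians -3.88, -4.32 and -2.79), and the summed endothelial markers stood at 43.6 and 269 CPM in the young and at most 12.8 CPM in the old rats.

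Of the other lists, the fatty acid-binding genes stood out by size: Fabp4 stood at 363 and 272 CPM in young, 3.55 and 36.4 CPM in old and 8.32 and 0.812 CPM in HFHF-old rats (-4.20 ± 1.17) and Fabp5 at 24.0 and 65.2 CPM in young, 2.49 and 5.48 CPM in old and 31.4 and 4.06 CPM in HFHF-old rats (-3.92). Among members with at least 10 UMIs Fabp4 stood at 391 and 107 CPM in young, 3.71 and 25.7 CPM in old and 4.71 and 0.827 CPM in HFHF-old rats. Across the alternatives its log2 fold change lay between -6.76 (without old replicate 2) and -2.10 (without doublet-like cells). With at least 10 UMIs the summed endothelial markers still stood at 34.7 and 207 CPM in young and 9.64 and 5.48 CPM in old rats. The part of such cells in the Fabp4 values was not tested. Among 21 collagens, 14 with negative values (median -0.15), Col8a1 (1.91) and Col5a3 (-1.72) had the smallest p. The cross-linking enzyme Lox was at 230.3 and 236 CPM in young, 96.1 and 68.5 CPM in old and 227 and 147 CPM in HFHF-old rats among members with at least 10 UMIs (-1.05 over all members). Of the adventitial list 22 of 28 values were positive (median 0.35), with 16 of 28 and 0.01 with at least 10 UMIs, led in p by Procr (1.06) and Thy1 (-2.20), whereas the summed list among members with at least 10 UMIs was 21438 and 16604 CPM in the young and 18690 and 19283 CPM in the old rats. Of 33 early dissociation genes 30 were positive (median 0.69), with Nr4a1 (1.91) and Btg2 (1.14). The smallest p of the remaining lists belonged to Adamts15 (-1.36) and Plat (0.76) of the proteases, Ctgf (1.07) and Wnt10b (1.28) of Wnt, BMP and TGF-beta signalling, Tnfsf13b (1.31) and Pla2g2a (2.54) of the cytokines, Irf7 (0.90) and Mx1 (-0.76) of the interferon genes, RT1-Bb (3.23) and Cd74 (-2.61) of class II, Thbs4 (3.42) and Prelp (0.65) of the glycoproteins, Mdk (1.03) next to Fgf7 of the growth factors, Lmod1 and Tpm2 (-1.84) of the contractile genes, Gss (0.83) and Gclc (0.92) of the antioxidants, Ddit4 (-1.27) and Pdia4 (0.62) of endoplasmic reticulum stress, Ccnd1 (-0.87) and Cdkn1c (1.35) of growth arrest, and Uqcrq (-0.74) and Cox7c (-0.54) of oxidative phosphorylation. Several of these values changed sign when 1 rat was left out: Thbs4 was -4.45 without old replicate 1, Mdk was -0.16 without old replicate 2, and without young replicate 2 Cd74 was 0.40, Tpm2 0.93, Uqcrq 0.036 and Cox7c 0.10. RT1-Bb, low in most rats as given above, lay between 2.27 and 5.71 across the alternatives. Of the 54 genes that the rule names for age, 28 moved by more than 1.5-fold when 1 rat was left out, and 36 did so under any alternative.

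Whether the class changed differently from the other 2 fibroblast classes was tested as an interaction, in a separate fit with the rat as a block. The cells of those 2 classes entered as 1 sum per rat, so the test alone does not part a change in their mix from a change within a class. The C7 class gave 22.3% and 20.7% of the UMIs in that sum in the young rats, 50.5% and 58.1% in the old rats and 9.73% and 22.2% in those fed HFHF. For the diet 1 of 12983 genes passed (0.0077%), Prap1, which is known from intestinal and other epithelium, with a difference of 7.87 ± 0.65 on the log2 scale (edgeR adjusted p = 0.0154). It stood at 254 CPM in members of HFHF-old replicate 1 and at 0 CPM in those of HFHF-old replicate 2, so it rested on 1 library. Without HFHF-old replicate 1 its difference was 0.581, and it was not called without that library or without old replicate 2 (7.26). With at least 3 UMIs of the pair in a member the difference was 0.991 (edgeR adjusted p = 0.988), and with no block for the rat it was 7.38 and not called. DESeq2 gave 5.52 with no adjusted p. With cells thinned to 2000 UMIs and without doublet-like cells Prap1 was too low to test. Prap1 was too low to test with at least 10 UMIs per class, where 1 of 11765 genes passed (0.0085%), Mgp, with a difference of 1.74 ± 0.15 (edgeR adjusted p = 0.00247). In these cells Mgp stood at 170.1 and 938 CPM in young, 178 and 193 CPM in old and 164 and 285 CPM in HFHF-old rats in members, 1886 to 7456 CPM in the C7 class and 58.9 to 220.3 CPM in the Gfpt2 class. The C7 class was thus far above the Gfpt2 class in Mgp, and its share of the sum was highest in both old rats.

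For age 2 of 12983 genes passed (0.0154%). Nabp1, a single-stranded DNA-binding protein, stood at 10.1 and 11.7 CPM in young, 4.62 and 6.97 CPM in old and 6.40 and 8.12 CPM in HFHF-old rats in members and at 11.3 to 118 CPM in the C7 class, where both young rats were lowest, and at 4.42 to 10.3 CPM in the Gfpt2 class. The C7 share of the sum was also higher in both old than in both young rats. Within the C7 class alone Nabp1 was at 12.4 and 11.3 CPM in young and 118 and 101 CPM in old rats. Its difference was -3.72 ± 0.39 (edgeR adjusted p = 0.0109), and with at least 10 UMIs per class -3.59 ± 0.34 (edgeR adjusted p = 0.00429). Without young replicate 2 it was -3.44 with an edgeR adjusted p of 0.0524, with no block for the rat it was -3.92 and not called (edgeR adjusted p = 0.185), and with DESeq2 it was -3.80 with no adjusted p. Scd, a fatty acid desaturase, had a difference of -11.86 (edgeR adjusted p = 0.0109). It rested on 167 CPM in young replicate 1 alone, with 0.548 CPM in young replicate 2. It was not called without young replicate 1 (-3.35) or with no block for the rat (-10.9), and with DESeq2 it was -8.36 with no adjusted p. Scd was too low to test with thinned cells, without the top 1% of cells, without doublet-like cells and with at least 10 UMIs per class. With at least 10 UMIs per class 6 of 11765 genes passed (0.051%), namely Nabp1, Mgp (-1.68), Smoc2 (-1.99), Trhde (-1.77), Mylk (-2.78) and RGD1305645 (-2.18), all with negative differences. At that limit Mgp averaged 3507 CPM in the C7 class and 132 CPM in the Gfpt2 class, and Smoc2 averaged 165 and 17.3 CPM. The part of the mix of the 2 classes in these differences was not tested.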

How the data were processed

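Pancreatic cells of 6 rats, enriched for islets, were sequenced with the 10x Genomics 3′ kit. The authors deposited 1 matrix of raw UMI counts per rat, made with Cell Ranger (the matrix header names version 5.0.0) against Rnor_6.0. Barcodes with at least 200 genes and at most 25% mitochondrial UMIs were kept (2043 left out). The members, gene lists and rule were chosen with earlier results of these data known.

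UMI counts were summed per rat and class and tested with edgeR 4.0.16 in R 4.3.3 (TMM, filterByExpr, quasi-likelihood test, Benjamini-Hochberg adjustment over all genes tested). A gene was called at an adjusted p below 0.05 and a change over 1.5-fold. Group comparisons within the class used all 6 rats, and comparisons of classes and differences between classes had the rat as a block. Standard errors were derived from the test statistic. DESeq2 1.42.0 was an alternative. The 15 rule genes stayed in library sizes and out of tests. Shares were compared by exact two-sided permutation tests, and intervals and floors cover counting error only. The scripts were tested on simulated data.

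Named genes within the class and between classes were the 10 with the smallest p in each direction (plain symbols, over 1.5-fold, groups not overlapping or all rats alike). Within the class the called members of each list other than cell type markers were added, or the 2 with the smallest p where none was called. Between classes only the first few called members by p of the adventitial, matrix, complement and cytokine lists were added. For the differences between classes the called genes were named, up to 10. A few genes that this rule names are not reported here. Of 611 listed genes 586 were matched, and the others were not analysed here. No doublet caller was run. Doublet-like cells were left out as an alternative. Of the kept barcodes, 20 to 66 were shared by any 2 libraries, and 0 or 1 among members. Chance would give 11.4 to 42.3 of the kept barcodes, and every pair of libraries shared more than its own expected number. The cause was not tested. Replicate numbers did not pair the rats, with correlations of deviations of -0.04, -0.50 and 0.16 between groups.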

Additional observations from a re-analysis of the deposited data

Results flagged for a closer look

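In 3 genes the change between groups differed between the Pi16 Clec3b fibroblasts and the other 2 fibroblast classes by the test of the difference itself, in which those 2 classes were 1 sum per rat. For Prap1 the diet change differed by 7.87 on the log2 scale (edgeR adjusted p = 0.0154). Members of HFHF-old replicate 1 held 254 CPM of it, and those of the other 5 rats held 0 to 3.49 CPM. It was not called without HFHF-old replicate 1, without old replicate 2, with at least 3 UMIs of Pi16 and Clec3b (a difference of 0.991, edgeR adjusted p = 0.988) or with no block for the rat, and DESeq2 gave 5.52 with no adjusted p. Prap1 was too low to test with thinned cells, without doublet-like cells and with at least 10 UMIs per class.

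For Scd the age change differed by -11.9 on the log2 scale (edgeR adjusted p = 0.0109), with 167 CPM in members of young replicate 1 and 0 to 0.548 CPM in those of the other rats. It was not called without young replicate 1 (-3.35) or with no block for the rat (-10.9), and DESeq2 gave -8.36 with no adjusted p. Scd was too low to test with thinned cells, without the top 1% of cells, without doublet-like cells and with at least 10 UMIs per class.

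For Nabp1 the age change differed by -3.72 on the log2 scale (edgeR adjusted p = 0.0109). It stood at 10.1 and 11.7 CPM in young, 4.62 and 6.97 CPM in old and 6.40 and 8.12 CPM in HFHF-old rats in members, while in the C7 class the young rats had 12.4 and 11.3 CPM and the 4 aged rats 49.1 to 118 CPM. The Gfpt2 class stood at 4.42 to 10.3 CPM. The C7 class made up 22.3% and 20.7% of the UMIs of the 2 classes in young and 50.5% and 58.1% in old rats, and the levels above are those within each class. The call was lost without young replicate 2 (-3.44, edgeR adjusted p = 0.0524) and with no block for the rat (-3.92, edgeR adjusted p = 0.185), and DESeq2 gave -3.80 with no adjusted p.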

How the results depend on the processing

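Of 118 alternative values of the counts and shares, 64 stayed within the limits set for them (1.5 times a count, 1 SD of a share) and 54 moved, and of 3111 alternative values of named genes 2964 kept direction and side of the threshold, 72 lost and 62 gained a call and 13 changed sign. The causes were not tested. Within the class, the diet calls went from 0 to 5 with DESeq2, 249 with no filter on low counts and 1 without doublet-like cells (0 without each rat in turn). The age calls went from 0 to 12 with DESeq2, 467 with no filter, 4 without doublet-like cells and 1 without the top 1% of cells by gene number, with at least 3 UMIs, with at least 10 UMIs and without acinar, islet and erythroid UMIs (0 to 1 without each rat, the 1 without young replicate 1). With the replicate number as a block both counts stayed at 0.

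Against the Gfpt2 class, 371 calls became 863 with no filter, 5 with no replicate block (the rat left out of the design), 190 with cells thinned to 2000 UMIs, 241 without the top 1% of cells, 155 without doublet-like cells and 194 with at least 10 UMIs. They were 210 to 308 without each rat, with 220 without young replicate 1, 210 without old replicate 2 and 230 without HFHF-old replicate 1. Against the C7 class 1570 became 833 with no replicate block and 1341 to 1640 without each rat. The 1 diet difference between classes became 17 with DESeq2, 282 with no filter, 0 with no replicate block, 12 thinned, 4 without the top 1%, 0 with at least 3 UMIs and 22 without doublet-like cells. Without each rat it was 1 to 52, namely 6 without either young replicate, 5 and 23 without old replicates 1 and 2, and 52 without HFHF-old replicate 2. The 2 age differences became 21 with DESeq2, 259 with no filter, 0 with no replicate block, 24 thinned, 48 without doublet-like cells and 6 with at least 10 UMIs. Without each rat they were 1 to 21, namely 21 and 1 without young replicates 1 and 2, 10 and 7 without old replicates 1 and 2, and 8 without either HFHF-old replicate.

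The share difference between HFHF-old and old rats was -20.8 percentage points thinned, and -19.3 to -6.35 without each rat (-6.35 without HFHF-old replicate 1, -19.3 without HFHF-old replicate 2). That between old and young rats was -1.49 thinned, 1.94 with at least 10 UMIs, and -34.7 to -4.06 without each rat (-34.7 without young replicate 1, -4.06 without young replicate 2). As mean shares of all cells the differences were -2.34 points, from 3.37% in old to 1.03% in HFHF-old rats, and -3.36 points, from 6.73% in young to 3.37% in old rats. These 2 have another base and cannot be set against shares of fibroblasts, though they were counted among the 54 values that moved.

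Log2 fold changes of some genes that were not called changed sign, given here with their range without each rat in turn. For the diet these were Ctgf (0.13 thinned), C5ar1 (-0.25 to 2.91, lowest without HFHF-old replicate 1, and -0.86 thinned), Gadd45b (-0.039 to 1.32, lowest without HFHF-old replicate 2) and Ccnd2 (-2.42 to 0.68, highest without old replicate 1, and 0.33 without doublet-like cells). For age these were Thbs4 (-4.45 to 5.71, lowest without old replicate 1), Mdk (-0.16 to 1.69, lowest without old replicate 2) and, each highest without young replicate 2, Cd74 (-3.50 to 0.40, and 0.16 without doublet-like cells), Tpm2 (-3.12 to 0.93), Uqcrq (-1.23 to 0.036) and Cox7c (-0.97 to 0.10).

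The use of at least 10 UMIs per class was chosen after seeing the data. The planned test of members with Pi16 against those with Clec3b alone could not be fitted, since 1 rat had at least 10 cells of the second kind. Where leaving out a rat left 1 in its group, that rat was assumed to vary like the other groups. With 2 rats per group, nothing says whether smaller changes within the class exist.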
